A study of Mus musculus with 4 samples.

Results

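The genes described here are the forkhead transcription factor genes of the mouse outside the Foxc1 locus, and the measurement is where open chromatin lay at them in hair follicle stem cells. Members were all protein-coding genes of the RefSeq GRCm38 gene table named Fox, 1 lower-case letter and a number, which gave 44 genes, of which Foxc1, Foxf2 and Foxq1 were left out. The remaining 41 genes stand among 21887 protein-coding genes on the chromosomes. The rule used names only and no measured value.

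Open chromatin had been mapped by ATAC-seq, in which the Tn5 transposase cuts and tags accessible DNA, in cells from the back skin of female mice at postnatal day 30. Sorted cells were positive for a histone 2B-GFP reporter (K14-H2BGFP), CD34 and CD49f and negative for Sca-1. There were 2 genotypes: the knockout carried K14-H2BGFP, K14Cre and Foxc1 fl/fl, and the control carried K14-H2BGFP and Foxc1 fl/fl without the Cre, so both groups share the reporter and the floxed Foxc1 alleles. Both transgenes are driven by the K14 promoter, which is active in basal epithelial cells at large and is not limited to the stem cells. Each genotype has 1 library with a first and a repeat run (4 runs). All runs share 1 list of 74777 accessible regions (peaks) on mm10, with no score, read count or genotype, so no comparison of knockout with control was possible, the depth is unknown, and nothing below was tested. The cell type was checked by markers: all 8 stem cell markers (Cd34, Krt15, Sox9, Lhx2, Lgr5, Tcf7l1, Nfatc1 and Itga6) and 4 of 5 basal keratinocyte markers (Trp63 is the exception) had a peak within 1 kb of a gene end, as did 0 of 5 immune, 0 of 4 endothelial, 2 of 5 fibroblast and 3 of 4 melanocyte markers, where 57.6% of all protein-coding genes did. Inside peaks were present at 6 of 8 stem cell and 3 of 5 basal keratinocyte markers, where 36.7% of all protein-coding genes had one. The counts were 3 of 4 for endothelial markers (5 in Pecam1, 2 in Cdh5 and 1 in Emcn), 0 of 5 immune, 1 of 5 fibroblast and 2 of 4 melanocyte. The part of other cells in the list was not tested.

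Forkhead proteins bind DNA through a winged-helix domain and recognise variants of the sequence TGTTTAC. Some, such as the FOXA proteins, can bind nucleosomal DNA and open it for other factors, FOXO proteins are kept out of the nucleus by insulin and AKT signalling, and FOXM1 drives genes of mitosis. In skin, Foxc1 and Foxp1 are known for restraining the division of hair follicle stem cells, Foxn1 is the gene mutated in the hairless nude mouse, and Foxe1 and Foxi3 act in the formation of hair follicles.

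As a whole, and without regard to gene length, the family had about as many peaks as other genes. A peak within 1 kb of either end was present at 26 of 41 members (63.4%, exact 95% interval 46.9 to 77.9, counting error only), where the background over all protein-coding genes was 57.6%. Peaks inside the gene were present at 13 members (31.7%), against a background of 36.7%, and a peak outside the gene but within 50 kb at 37 members (90.2%), against 87.1%. A total of 3 members (7.32%) had no peak in any of these classes, against 8.97%. The median over the classes together was 5 peaks per member (quartiles 3 and 7), and it was also 5 over all protein-coding genes (quartiles 2 and 8). Each peak was counted once per gene, first as an end peak, then by its midpoint as inside or flanking.

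The peaks were unevenly spread over the family. Foxp1 had 29 peaks and Foxn3 had 27, of which 26 and 23 were among the 83 peaks inside members. Next came Foxe1 with 16, Foxp4 with 14, Foxj2, Foxm1 and Foxo6 with 11 each, Foxh1 with 10, Foxp2 with 9 and Foxr1 with 8. The other members had between 0 and 7. Over all protein-coding genes 0.690% had more peaks than Foxp1, 0.827% more than Foxn3 and 3.55% more than Foxe1. In all there were 263 pairs of a member and a peak, made of 250 distinct peaks, since 8 peaks were counted for more than 1 member.

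**Figure D1:**
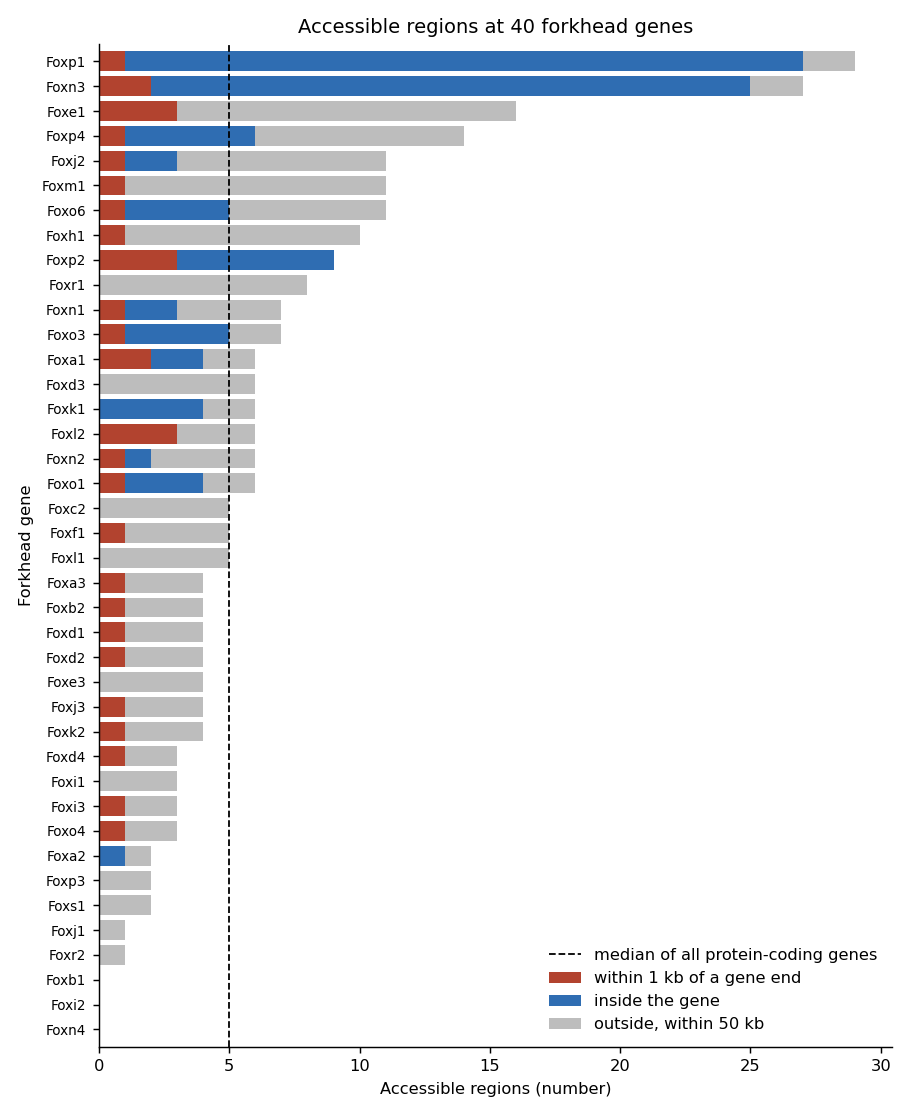
Number of accessible regions at 40 of the 41 forkhead genes, split into those within 1 kb of a gene end, inside the gene, and outside but within 50 kb. The dashed line is the median of all protein-coding genes (5), and Foxp1, Foxn3 and Foxe1 stand highest with 29, 27 and 16.

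Grouped by background knowledge, the members listed as broadly expressed had open ends most often. A first list held 12 members taken to be expressed in most cell types (Foxj2, Foxj3, Foxk1, Foxk2, Foxm1, Foxn2, Foxn3, Foxo1, Foxo3, Foxo4, Foxp1 and Foxp4). Of these, 11 had an end peak (91.7%), and the exception was Foxk1. Foxm1 is in this list although it is a mitotic regulator, and its end peak also lies at the end of Rhno1. Of 18 members best known from other organs, 9 had one. Those without were Foxa2 of gut and liver, Foxb1 of the developing brain, Foxi1 of inner ear and kidney, Foxj1 of ciliated cells, Foxn4 of the retina, Foxp3 of regulatory T cells, Foxr1, Foxr2 and Foxs1. Of the other 11 members, 6 had an end peak (54.5%). Both of these shares are near the background of 57.6%. The lists were drawn by hand, and the other 11 include Foxc2, Foxe3, Foxf1 and Foxl1, which are also known from other tissues. The first group also holds the longer genes, with a median length of 59.0 kb against 4.44 kb in the second. Of all protein-coding genes, 67.9% of those of 40 kb or more had an end peak and 42.5% of those under 10 kb, and the part that length plays in these counts was not tested. Of 10 members with known roles in skin, hair or growth control (Foxd3, Foxe1, Foxi3, Foxk1, Foxk2, Foxm1, Foxn1, Foxo1, Foxo3 and Foxp1), 8 had an end peak (80.0%), all but Foxd3 and Foxk1.

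The widest end peak of the members was narrower at the median than that of all genes, but not in the broadly expressed group. Where a member had an end peak, its widest one had a median of 857 bp (quartiles 597 and 1512 bp), against 1328 bp over the 12600 protein-coding genes with an end peak (quartiles 912 and 1817 bp). In 11 of the 26 members (42.3%) it reached 1000 bp, against 70.0% of all genes with an end peak. The 11 were Foxa3, Foxh1, Foxj2, Foxj3, Foxm1, Foxn2, Foxo1, Foxo3, Foxo4, Foxo6 and Foxp4, of which 8 belong to the broadly expressed group. In that group the median was 1377 bp and 8 of 11 (72.7%) reached 1000 bp, while the median was 832 bp in the 9 members best known from other organs and 588 bp in the remaining 6. Among members shorter than 10 kb the median was 634 bp (n = 12), against 1234 bp over the 3370 genes of that length with an end peak. Among members of 40 kb or more it was 1277 bp (n = 9), against 1407 bp. With no read counts, width is the one property of a peak that the list holds.

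Foxp1 encodes a repressor of stem cell division in the hair follicle and is the longest member, at 597.4 kb (chr6:98925342-99522746, minus strand). It had 1 end peak, 26 peaks inside and 2 flanking peaks. RefSeq lists 3 start windows for it, each from 250 bases before to 50 bases after a transcription start. Peaks lay at the inner starts but not at the outermost listed one. The inner start closest to the 3′ end of the gene, at 99028298, lay within a peak of 1018 bp (99027717 to 99028734), one of 5 peaks within 6.5 kb. The middle start, at 99266515, lay within a peak of 200 bp, the smallest width in the list. The outermost listed start, at 99520993, lies inside the upper-coordinate bound of the gene and had no peak in its window. The end peak, of 462 bp, lay 2160 bp upstream of that start, with its midpoint 637 bp beyond the upper-coordinate bound. A flanking peak of 1722 bp lay 6991 bp upstream of the same start.

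Peaks inside Foxp1 were spread along the gene. Their midpoints were between 0.7 and 87.1 kb apart, with a median gap of 17.8 kb, and 20 of the 26 lay more than 50 kb from either end. The widest, of 2046 bp, lay 23.0 kb from the 3′ end, and 4 of the 26 reached 1000 bp. Of 137 protein-coding genes of similar length (at least 0.8 times its length and at most its length divided by 0.8), 89.1% had fewer peaks inside and 9.49% more, with a median of 10. Its density was 4.35 inside peaks per 100 kb.

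Foxn3 encodes a repressor that is expressed in many tissues and spans 373.6 kb (chr12:99190081-99563667, minus strand). It had 2 end peaks at its upper-coordinate bound, the 5′ side, of 825 and 386 bp, 23 peaks inside and 2 flanking peaks. Both end peaks also lie within 1 kb of an end of the long non-coding RNA gene Gm26839. Inside peaks were gathered in the downstream portion: 22 of 23 lay between the 3′ end and the start that RefSeq lists, which lies 113.6 kb inside the gene at 99450074 and had no peak in its window. The stretch of 64.2 kb from 99334759 to 99398987, chosen after its values were seen, held 11 peaks, of which 5 reached 1000 bp and the widest had 3039 bp. That widest peak covers both ends of Gm51999, a separate short protein-coding gene annotated inside Foxn3 from 99392166 to 99393644, so it is an end peak of that gene as well. Of 298 genes of similar length, 91.6% had fewer inside peaks than Foxn3 and 7.38% more, with a median of 8, and its density was 6.16 per 100 kb. Over the 557 protein-coding genes of 300 kb or more the median density was 1.82.

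Foxp2, known from brain development and speech, is a paralogue of Foxp1 and is nearly as long (540.6 kb, chr6:14901349-15441977). It had 3 peaks around its lower-coordinate end, of 336, 832 and 312 bp, but 6 inside peaks against the 26 of Foxp1, none (0) of them reaching 1000 bp and the widest of 958 bp. There was no peak within 50 kb outside the gene. The inside density was 1.11 per 100 kb, and 60.1% of the 168 genes of similar length had more inside peaks. Peaks covered 0.44% of the interior in Foxp2, 2.86% in Foxp1 and 5.66% in Foxn3.

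**Figure D2:**
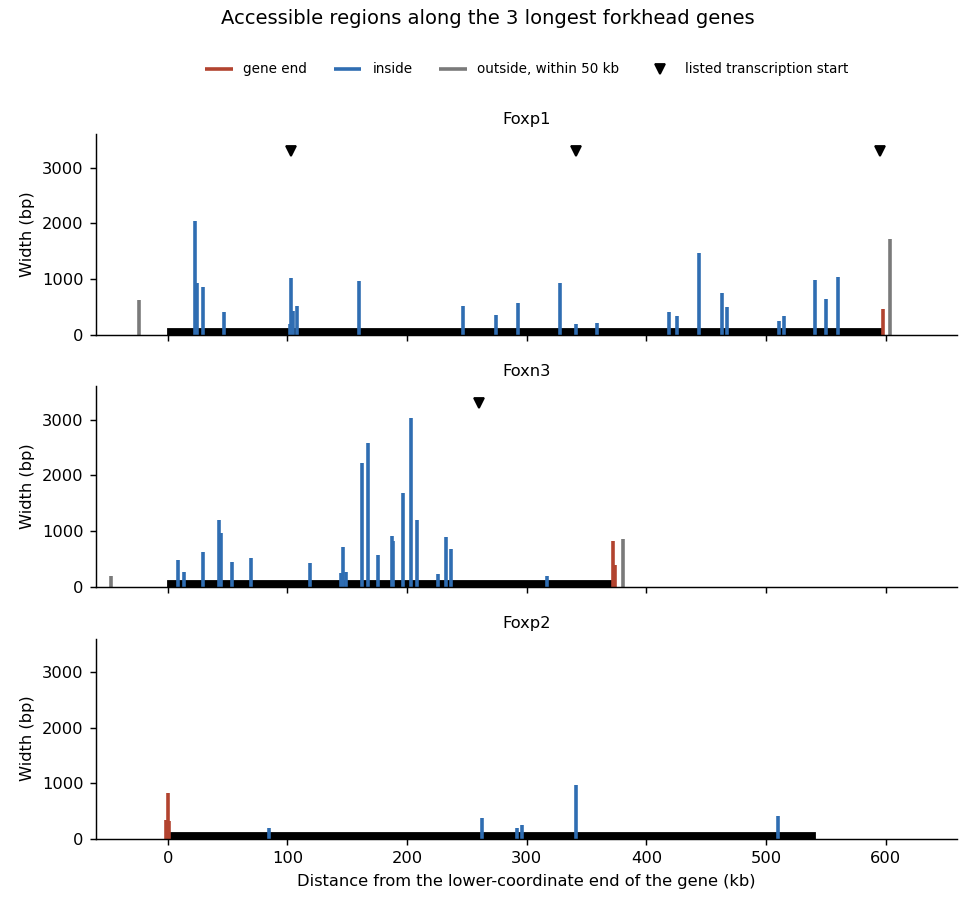
Accessible regions along Foxp1, Foxn3 and Foxp2, placed by their distance in kb from the lower-coordinate end of the gene, with bar height giving the width of each region in bp; the black bar is the gene and triangles are the transcription starts listed for it (none is drawn for Foxp2). Foxp1 and Foxn3 hold 26 and 23 regions inside, Foxp2 holds 6, and the widest regions of Foxn3 lie together near its middle.

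The other members of the FOXP subfamily differed from each other. Foxp4, which acts with Foxp1 and Foxp2 as partner proteins, had a peak of 1277 bp over its start (chr17:47924114-47925390), 5 peaks inside its 57.5 kb and 8 flanking peaks. The start peak also lies within 1 kb of an end of the gene Gm46601. Inside peaks of Foxp4 were 401 to 1469 bp wide, and 89.1% of 1821 genes of similar length had fewer. Foxp3, the master regulator of regulatory T cells, had no end peak and no inside peak. Its 2 flanking peaks, of 1343 and 1074 bp, lay at the ends of the neighbouring genes Ppp1r3f and Ccdc22. None of the 5 immune cell markers had an end or inside peak.

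All 4 FOXO genes, which encode the factors held in check by insulin and AKT signalling, had exactly 1 end peak, and each was wider than 1000 bp. Foxo3 had the widest end peak of the family, 2922 bp over its start (chr10:42276087-42279008). Foxo1 had 1854 bp over its start (chr3:52267475-52269328), Foxo6, best known from brain, 1557 bp at its upper-coordinate end (chr4:120286881-120288437), and the X-linked Foxo4 1242 bp at its lower-coordinate end (chrX:101253728-101254969). Inside peaks numbered 4 in Foxo3, 3 in Foxo1, 4 in Foxo6 and 0 in Foxo4. For the 20.2 kb length of Foxo6 the 4 inside peaks were many: 97.4% of 2758 genes of similar length had fewer and 1.12% more. Its 6 flanking peaks were 306 to 963 bp wide and all had Foxo6 as the nearest protein-coding gene. At Foxo4 both flanking peaks lay at ends of other genes, Snx12 and Med12.

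Among the remaining long members the interior ranged from several peaks to none. Foxk1 and Foxk2 encode closely related repressors of autophagy genes that most cells express. Foxk1 had no end peak but 4 peaks inside its 60.5 kb, of 200, 1291, 809 and 1600 bp, while Foxk2 had a peak of 785 bp over its start and none (0) inside its 49.9 kb. Foxj2 and Foxj3 were likewise unlike. Foxj2 had a peak of 2146 bp over its start and, 3.4 kb downstream of the start, an inside peak of 3541 bp (chr6:122823600-122827140), the widest of any inside peak in the family. Foxj3 had a start peak of 1845 bp, which also lies at the end of Frg2f1, and none (0) inside its 89.5 kb, where 80.0% of 1403 genes of similar length had at least 1. Foxn2 had an end peak of 2435 bp and 1 inside peak, and its flanking peaks included one of 3196 bp, 19.5 kb beyond its upper-coordinate end.

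**Figure D3:**
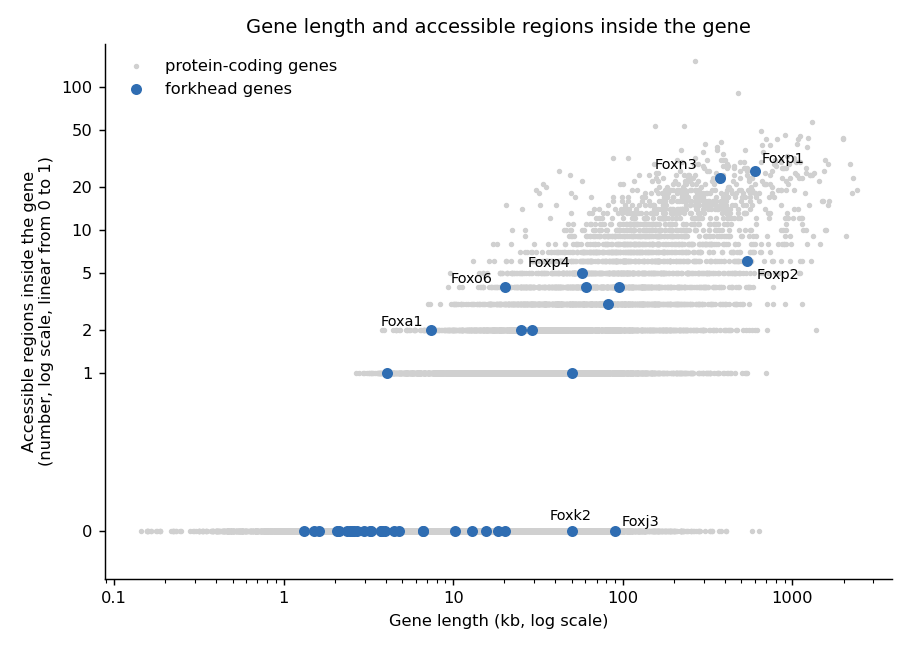
Number of accessible regions inside each gene against its length in kb (log axes, the vertical one linear below 1), for all protein-coding genes in grey and forkhead genes in blue. Foxp1 and Foxn3 lie high for their length, Foxo6 and Foxp4 likewise, and Foxk2 and Foxj3 lie at 0.

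Most members are short: 23 of 41 span less than 10 kb, and 3 of them (Foxb2, Foxe3 and Foxs1) are under 2 kb, so that the end windows cover the whole gene. Inside peaks were found at 2 of these 23 (8.7%), Foxa1 with 2 and Foxa2 with 1. Of the 7925 protein-coding genes under 10 kb, 6.64% had one. Across members, length and number of inside peaks had a Spearman correlation of 0.71 (n = 41 genes), and across all protein-coding genes it was 0.64. Both are descriptions of 1 peak list.

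Foxe1, a factor of thyroid and hair follicle development, had the most flanking peaks of the family. It is 2131 bp long (chr4:46343644-46345774) and carried 3 narrow peaks at its lower-coordinate end, of 651, 233 and 200 bp. The peaks of 233 and 200 bp lie within the gene. All 3 also lie within 1 kb of an end of the long non-coding RNA gene Gm12446. A further 13 peaks lay within 50 kb, 5 below and 8 above the gene, and 1.27% of all protein-coding genes had more. Of the 13, 12 lay away from ends of other protein-coding genes, and 0.717% of genes had more of this kind. The widest were 2097 bp, 44.1 kb above, and 2025 bp, 39.0 kb below, the latter at the end of Gm12447. The gene and its surroundings held 12 of the 16 peaks within 55.0 kb (46335902 to 46390905), a stretch chosen after its values were seen. By nearest gene end 3 of the 13 belonged to Foxe1 and the rest to its neighbours Trmo and Gm12447, so which gene these peaks serve cannot be read from the list.

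Other genes known from skin had fewer peaks around them. Foxn1, which switches on hair shaft differentiation, had a peak of 229 bp just upstream of its start (chr11:78386688-78386916), 2 narrow inside peaks of 275 and 200 bp and 4 flanking peaks, of which 3 lay at ends of other protein-coding genes. Foxi3, an ectodermal factor of hair placodes, had a peak of 559 bp over its start (chr6:70956203-70956761) and 2 flanking peaks. Foxd3, a regulator of neural crest and melanocyte precursors, had no end peak and 6 flanking peaks, all narrow (228 to 542 bp). Of the melanocyte markers Dct, Mlana and Pmel had an end peak and Tyr did not. Foxm1, the mitotic regulator, had an end peak of 1377 bp (chr6:128361655-128363031) that also lies at the end of the DNA damage gene Rhno1, whose nearest end is 83 bp away. It had 0 inside peaks and 10 flanking peaks, 8 of them below the gene, and all 10 lay nearest to ends of other genes, among them Tulp3, Rhno1, Nrip2 and Itfg2.

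Foxf1, Foxc2 and Foxl1 had 5 peaks each, the median of all protein-coding genes, and these were the same peaks. Foxf1 and Foxl1 are factors of mesenchyme and Foxc2 is known from lymphatic vessels and is the closest relative of Foxc1. All 3 genes lie within 50 kb on chromosome 8, so their counts are not independent. The peaks were 398, 295, 1063, 619 and 316 bp wide, none lay at an end of Foxc2 or Foxl1, and the one at Foxf1 (398 bp) also lies near the end of the long non-coding RNA gene Fendrr. The widest, of 1063 bp, lay at the end of Mthfsd. Foxd2 and Foxe3 are a second pair of neighbours, on chromosome 4, with 3 of 5 peaks counted for both. Foxd2 had a peak of 882 bp over its start that it shares with the divergent Foxd2os, and Foxe3, the lens factor, had no end peak.

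**Figure D4:**
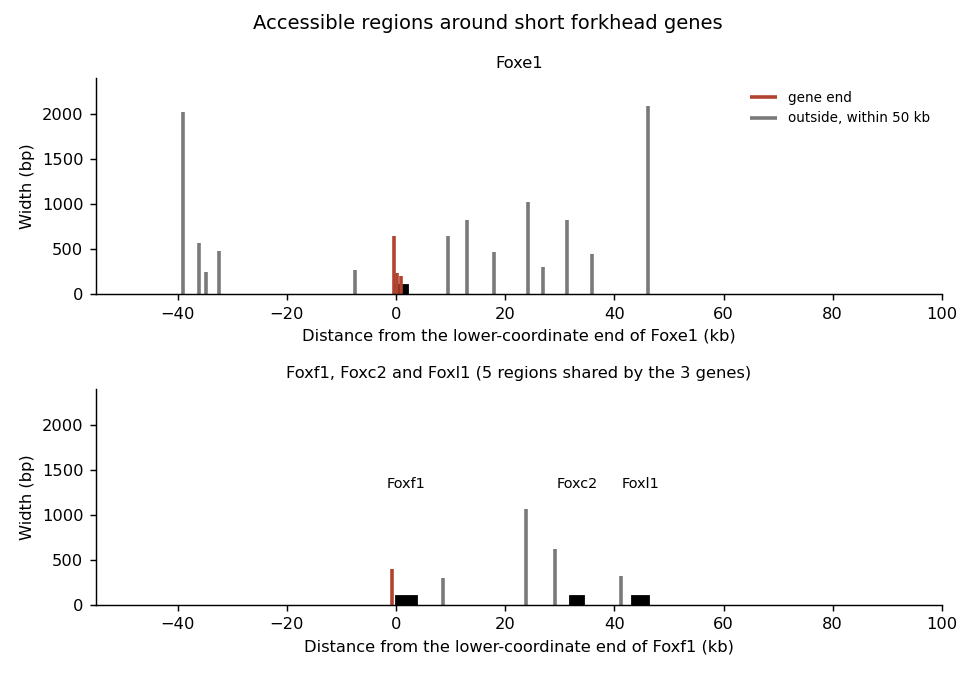
Accessible regions around Foxe1 (top) and around Foxf1, Foxc2 and Foxl1 (bottom), placed by distance in kb from the lower-coordinate end of Foxe1 or Foxf1, with bar height giving width in bp and black bars giving the extent of the genes. Colours in the bottom panel are by the classes of Foxf1. Foxe1 has 16 regions, within the gene or on both sides of it, and the 3 clustered genes share 5.

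The 18 members best known from other organs had a median of 3.5 peaks, 15 of them had a flanking peak and 2 had no peak in any class. Over the whole family, no peak in any class was found at Foxb1 (chr9:69757710-69760940), Foxi2 (chr7:135410367-135413622) or Foxn4 (chr5:114254164-114274418). Flanking peaks alone were found at 10 members: Foxc2, Foxd3, Foxe3, Foxi1, Foxj1, Foxl1, Foxp3, Foxr1, Foxr2 and Foxs1. The share of all protein-coding genes with flanking peaks alone was not counted, so whether this number is unusual cannot be said. Foxl2, an ovarian factor, had 3 end peaks of 565, 754 and 552 bp, the former 2 also within 1 kb of an end of Foxl2os. It was among the 2 members with a peak at both ends (4.88%, against a background of 8.14%), and both are shorter than 10 kb. Foxa1 had 2 end peaks of 979 and 331 bp, the wider one also at the end of Ttc6, and Foxa3 had 1 of 1716 bp that lies at the end of Sympk too. At Foxh1, a partner of SMAD proteins, the end peak of 1140 bp lies at the end of Ppp1r16a, 29 bp away, and 8 of its 9 flanking peaks lay at ends of other protein-coding genes. Foxr1 had 8 flanking peaks, 5 of them at such ends. Narrow end peaks of 217, 616 and 200 bp were found at Foxb2, Foxd1 and Foxd4. Over the family 45 of 145 flanking counts (134 distinct peaks), or 31.0%, were at ends of other protein-coding genes. Without the counts at such ends the median was 2 flanking peaks per member, the same as over all genes. Of the 35 end peaks of the family, 15 also lay at an end of another gene of any type, 5 of them at one of a protein-coding gene. The same shares over all genes were not counted.

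RefSeq start windows gave the strand of 26 members. In 17 of these a peak lay within 1 kb of the bound where transcription starts (65.4%, background 55.2%), and in 1, Foxl2, within 1 kb of the other bound, where the background was 11.0%. A peak shared bases with at least 1 start window of 15 of the 26 members, against 55.0% of the 17492 protein-coding genes with a window. The members have 31 such windows of 300 bases, because Foxa2 and Foxp1 have 3 each and Foxp3 has 2. The 16 windows with a peak held a median of 29 CpG dinucleotides (range 5 to 59), and the 15 without held 12 (range 3 to 25). Over all 21263 windows of protein-coding genes the medians were 22 with a peak and 4 without. The groups overlapped: Foxp1's middle start, Foxn1 and Foxb2 had a peak with 5, 8 and 10 CpG, and Foxd3, one Foxa2 start and Foxn4 had none with 25, 23 and 22.

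**Figure D5:**
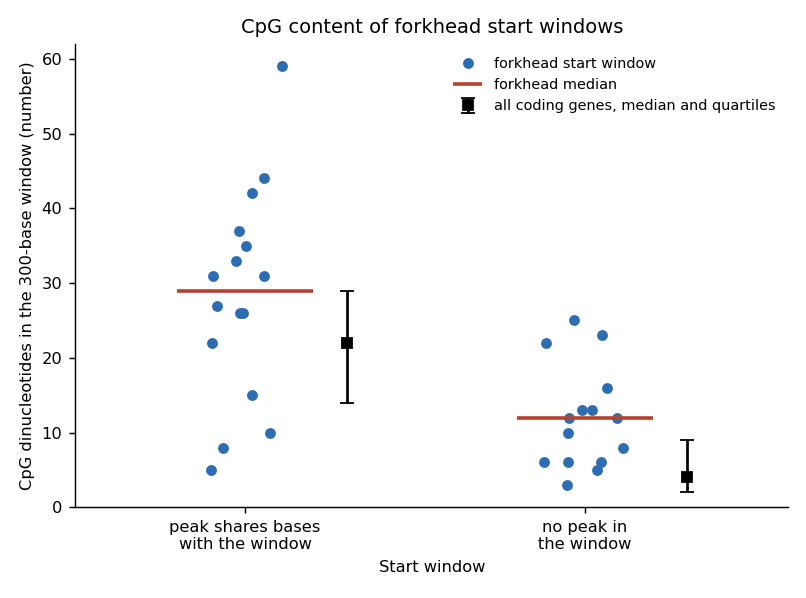
Number of CpG dinucleotides in the 300-base start windows of forkhead genes (blue points, with the red line at their median of 29 or 12), for windows that share bases with a peak and windows that do not. Black squares with bars are the medians and quartiles over all protein-coding genes (22 and 4).

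The sequences of the 150 bases before the start are shown for members with a skin role or many peaks whose window shared bases with a peak, so that the CpG-rich starts can be set beside the CpG-poor ones. They are from RefSeq, GRCm38.p6, read 5′ to 3′ towards the start on the strand of the gene, with each CpG in capitals. All 150 bases lay within a peak for Foxp1 (inner start), Foxo1, Foxo3, Foxp4, Foxj2, Foxk2 and Foxi3, 71 bases did for Foxn1 and 19 for the middle start of Foxp1.
Foxp1 inner start, chr6:99028299-99028448, minus strand: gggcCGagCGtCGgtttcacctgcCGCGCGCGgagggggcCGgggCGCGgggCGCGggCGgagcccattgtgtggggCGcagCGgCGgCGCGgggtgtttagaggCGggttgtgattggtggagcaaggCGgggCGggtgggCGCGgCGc
Foxp1 middle start, chr6:99266516-99266665, minus strand: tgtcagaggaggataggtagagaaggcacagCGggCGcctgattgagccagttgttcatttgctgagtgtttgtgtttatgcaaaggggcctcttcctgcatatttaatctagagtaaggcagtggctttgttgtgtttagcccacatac
Foxo1, chr3:52268187-52268336, plus strand: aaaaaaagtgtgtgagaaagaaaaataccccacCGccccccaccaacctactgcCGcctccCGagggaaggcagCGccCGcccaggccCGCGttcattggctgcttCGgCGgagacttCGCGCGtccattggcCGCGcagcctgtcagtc
Foxo3, chr10:42276696-42276845, minus strand: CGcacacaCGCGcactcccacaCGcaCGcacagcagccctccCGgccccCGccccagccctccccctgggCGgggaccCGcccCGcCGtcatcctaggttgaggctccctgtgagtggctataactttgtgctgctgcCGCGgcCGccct
Foxp4, chr17:47924633-47924782, minus strand: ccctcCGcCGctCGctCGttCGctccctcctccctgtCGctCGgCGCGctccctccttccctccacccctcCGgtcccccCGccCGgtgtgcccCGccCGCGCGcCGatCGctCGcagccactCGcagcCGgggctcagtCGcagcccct
Foxj2, chr6:122820034-122820183, plus strand: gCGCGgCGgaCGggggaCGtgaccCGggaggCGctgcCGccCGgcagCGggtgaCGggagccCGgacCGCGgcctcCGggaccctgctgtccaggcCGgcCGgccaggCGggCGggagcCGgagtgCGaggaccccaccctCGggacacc
Foxk2, chr11:121259837-121259986, plus strand: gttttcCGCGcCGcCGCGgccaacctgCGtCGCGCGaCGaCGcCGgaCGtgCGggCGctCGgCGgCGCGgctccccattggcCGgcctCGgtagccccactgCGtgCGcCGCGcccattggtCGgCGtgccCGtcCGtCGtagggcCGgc
Foxi3, chr6:70956456-70956605, plus strand: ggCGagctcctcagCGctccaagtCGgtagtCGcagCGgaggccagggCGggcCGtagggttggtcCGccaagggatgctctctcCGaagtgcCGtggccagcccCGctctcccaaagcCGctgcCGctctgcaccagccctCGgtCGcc
Foxn1, chr11:78386609-78386758, minus strand: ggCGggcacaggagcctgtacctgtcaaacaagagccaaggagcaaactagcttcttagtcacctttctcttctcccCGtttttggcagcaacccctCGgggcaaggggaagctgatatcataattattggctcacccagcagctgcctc

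For contrast, 2 of the members with no peak in any class have a listed window, and the same 150 bases of these lay in no peak.
Foxi2, chr7:135410217-135410366, plus strand: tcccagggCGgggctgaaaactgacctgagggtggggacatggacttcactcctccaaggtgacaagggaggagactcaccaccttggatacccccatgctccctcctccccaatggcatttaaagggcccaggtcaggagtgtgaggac
Foxn4, chr5:114273762-114273911, minus strand: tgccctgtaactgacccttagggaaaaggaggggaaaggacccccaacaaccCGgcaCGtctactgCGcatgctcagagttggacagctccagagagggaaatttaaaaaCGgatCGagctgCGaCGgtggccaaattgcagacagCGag

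In these stretches the CpG count was 31 for Foxk2, 24 for the inner start of Foxp1, 22 for Foxp4 and Foxj2, 15 for Foxi3, 14 for Foxo1 and Foxo3, 8 for Foxn4, 3 for Foxn1, 2 for the middle start of Foxp1 and 1 for Foxi2. Motifs were searched on both strands of the 300-base windows. The GC box GGGCGG, which itself holds a CpG, was found in 22 of 31 member windows (71.0%), and in 46.2% of all windows. Among windows with a peak it was found in 14 of 16 for members (87.5%) and in 67.4% for all genes, and among windows without a peak in 8 of 15 (53.3%) and 22.1%. CCAAT was found in 14 (45.2%, all windows 38.2%) and TATAAA in 3 (9.68%, all windows 12.6%). The forkhead sequence TGTTTAC was found in 1 member window, that of Foxa1, or 3.23%, and in 3.01% of all windows. Its variant TGTTTGC was found in 2, those of Foxj3 and the outermost listed start of Foxp1 (6.45%, all windows 4.58%). A match describes letters in these windows and not a bound site.

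Genes that act with forkhead factors mostly had open ends. Among regulators of FOXO, 17 of 21 had an end peak, including Akt1, Akt2, Pik3ca, Sirt1 and Igf1r, the last with 15 inside peaks. Skp2, Usp7 and Ywhaz were among those with none. Of 20 known FOXO target genes 18 had one, among them the cell cycle inhibitor gene Cdkn1b, the oxidative stress genes Sod2 and Cat (2 end peaks) and the sestrin genes Sesn1 and Sesn3, while Ccnd1 and Cdkn1a had none. Gadd45a, of the DNA damage response, had 13 flanking peaks. FOXM1 partners and targets had an end peak in 12 of 15 cases, including Mybl2, Plk1 and Ccnb1 and without Birc5, Ccnb2 and Skp2, and 5 of the 15 had an inside peak (33.3%), near the background of 36.7%. For FOXK partners, such as the deubiquitinase gene Bap1 and its cofactors, the count was 9 of 10, all but Dvl2. For FOXP partners and targets it was 10 of 12, all but Nfatc2 and Runx1, of which Runx1 held 17 inside peaks, and Fgf18, a bulge growth factor gene downstream of Foxp1, had 1 end peak and 5 flanking peaks. The background for an end peak is 57.6%, as above, and it is 67.9% over genes of 40 kb or more. Median lengths were 68.6 kb for FOXO regulators, 54.6 kb for the FOXP list and 38.4 kb for the FOXK list. They were 10.4 kb for FOXO targets and 12.1 kb for the FOXM1 list, against 17.2 kb over all protein-coding genes. The part that length plays in these counts was not tested.

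Forkhead genes were set beside 3 other families of transcription factors. An end peak was present at 12 of 19 Sox genes (63.2%), 14 of 17 Klf genes (82.4%) and 7 of 13 T-box genes (53.8%), against 63.4% of forkhead genes. Median totals were 5, 7 and 4 peaks. The widest end peak had a median of 766 bp in Sox, 2505 bp in Klf and 1169 bp in T-box genes, against 857 bp in forkhead genes, and all 14 Klf genes with an end peak reached 1000 bp. These differences between families were not tested.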

How the data were processed

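Values come from a deposited list of accessible regions, with 3 columns (chromosome, start and end) and no score, made by the authors from 4 runs of 2 libraries. Bowtie2, MACS2, bedtools and mm10 are named in the submitters' processing notes. Their settings, read filters, any Tn5 offset and any pooling of runs were not given in the sources used here. Peak widths and missed peaks can depend on all of these. Positions are printed 1-based, and a region on the mitochondrial genome was left out.

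Genes came from the RefSeq table of GRCm38.p6 (the assembly that mm10 is built on), and strands and start windows from the RefSeq promoter table of the same assembly. End peaks shared at least 1 base with 1 kb on either side of a gene bound. Other peaks were inside or within 50 kb by midpoint. Exons, introns and untranslated regions were not used here. Counting was done with Python 3.11.15 and pandas 2.3.3 and was checked on planted peaks and against a brute-force count. No test was run: 1 list gives no replicates. The promoter table held 26 of the 41 members. A planned comparison of protein sequences was not run.

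Members and gene lists were chosen with earlier results of these data known. Named genes were those with a known skin or hair role, the 10 members with the most peaks, those with peaks at both ends and those with none. Columns of per-sample values left unused numbered 0. Values of 1 member, and of some genes of the lists, are not reported here by name, though they are in the counts.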

Additional observations from a re-analysis of the deposited data

How the results depend on the processing

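Of 22 values under other settings, 11 stayed within 1.5 times the values given above. Among these 11 were the counts of members with no peak under other end windows or peak midpoints, all 3. Those counts could not change, because such settings only move a peak from one class to another. With flanks of 20 kb, 5 members (12.2%, all genes 16.5%) had no peak and the median was 3 peaks (also 3 over all genes). With 100 kb the values were 0 members (all genes 4.56%) and a median of 8 (9 over all genes). Counting only flanking peaks nearest to the member gave 21 members with a flanking peak (51.2%, all genes 38.5%). This left 8 members with no peak (19.5%, all genes 22.7%) and a median of 1 (all genes 2). With only peaks of at least the median width of 587 bp, 7 members (17.1%, all genes 19.7%) had no peak. The median was then 2 (all genes 3). End peaks were found at 17 of 26 members at the start bound alone (65.4%, all genes 55.2%). They were found at 11 of 21 members with no other gene end within 2 kb (52.4%, all genes 45.8%). Both counts are over fewer members by construction. An end window of 500 bp gave 24 members with an end peak (58.5%, all genes 54.4%), and 2500 bp gave 31 (75.6%, all genes 63.5%). Peak midpoints gave 26 (63.4%, all genes 54.2%). Wide peaks alone gave 20 (48.8%, where all genes had 51.6%, so that the order of family and background turned). No paired analysis was possible because the runs share 1 list with no value per sample, and no run could be left out for the same reason. Read depth is unknown, so a bare gene may be closed or below detection.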
